A study of Mus musculus with 15 samples.

Results

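Ribosome-protected fragments (RPFs) were examined on 10 transcripts that encode enzymes of sphingolipid synthesis and the proteins that regulate them: *Sptlc1*, *Sptlc2*, *Sptssa*, *Ormdl1*, *Ormdl2*, *Ormdl3*, *Kdsr*, *Cers2*, *Cers5* and *Cers6*. *Sptlc1* was chosen by its ratio of immunoprecipitated (IP) to total RPFs, which differed between the tagged cell lines in these same libraries, and the other 9 were listed by name because their products work with Sptlc1 or act after it. The ratios of *Sptlc1* are therefore given as a description without a test. All 10 are among the 21727 transcripts counted, and all 10 are among the 10085 tested, which have over 2 counts per 1000000 counts of the library (CPM) in at least 14 of the 15 libraries.

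The cells were E14Tg2a.4 mouse embryonic stem cells (mESCs), a pluripotent line kept in culture. In *Rps27-FLAG* mESCs a 3xFLAG epitope tag was inserted homozygously at the C-terminal end of endogenous *Rps27* with CRISPR, in *Rps27l-FLAG* mESCs the paralog *Rps27l* was tagged in the same way, and wild-type (WT) mESCs carry no tag (the labels write eS27 and eS27L for these ribosomal proteins). Each line is represented by 3 independently picked clones, all treated with cycloheximide and digested with RNAse A and RNAse T1, with 1 total RPF library per clone and 1 anti-FLAG IP RPF library per tagged clone. The study asked whether ribosomes that contain Rps27 and ribosomes that contain Rps27l associate with different mRNAs. WT cells have no IP library, so the fragments that the antibody brings down without a tag were not measured.

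Sphingolipids are membrane lipids built on a long-chain base. Their synthesis starts in the membrane of the endoplasmic reticulum, where serine palmitoyltransferase, made of the large subunits Sptlc1 and Sptlc2 and a small subunit such as Sptssa, joins serine to palmitoyl-CoA, and the Ormdl proteins bind this enzyme and hold back its activity when ceramide is plentiful. Kdsr reduces the product of that step, and the ceramide synthases, which include Cers2, Cers5 and Cers6, attach a fatty acid whose length depends on the synthase.

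The 15 libraries hold between 3972152 and 8064166 counts. All 10 pluripotency markers examined were tested, and their summed level was 3757.8 to 4105.6 normalized CPM in the total RPFs and 4475.1 to 4608.5 in the IP RPFs. Of 9 markers of differentiating cells 1 was tested, with a summed level from 24.8 to 46.5, and of 6 fibroblast markers 1 was tested, with a summed level from 9.21 to 33.4. No marker in these lists was at 0 in all libraries. *Rps27* had 0 counts in every library and *Rps27l* had 655 to 1151, so the counts of the tagged genes do not check the labels. The part of these differences between fractions in the results below was not tested.

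The counts take each fragment by the A site of its ribosome and leave out the first 15 and last 5 codons of a coding sequence (CDS). The start of the CDS of the large subunits is shown to make plain where counting begins, with bases left out in lower case and counted bases in capitals, 5′ to 3′ on the transcript. The *Sptlc1* stretch lies on the minus strand of GRCm38 in 2 exons, chr13:53377293-53377349 and chr13:53374052-53374069, and the *Sptlc2* stretch lies on the minus strand in 1 exon, chr12:87388097-87388171.
Sptlc1: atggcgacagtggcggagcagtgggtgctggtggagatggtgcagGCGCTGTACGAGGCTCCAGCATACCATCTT
Sptlc2: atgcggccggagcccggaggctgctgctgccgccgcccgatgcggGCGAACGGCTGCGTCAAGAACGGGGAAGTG

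*Sptssa* is shown whole because its CDS is the shortest of the genes examined. Its CDS of 213 nt lies on the minus strand in 2 exons, chr12:54656372-54656483 and chr12:54646435-54646535, and 153 nt of it are counted, here in capitals (the stop codon is not shown, and whether it belongs to the 5 codons left out is not given in the sources used here).
Sptssa: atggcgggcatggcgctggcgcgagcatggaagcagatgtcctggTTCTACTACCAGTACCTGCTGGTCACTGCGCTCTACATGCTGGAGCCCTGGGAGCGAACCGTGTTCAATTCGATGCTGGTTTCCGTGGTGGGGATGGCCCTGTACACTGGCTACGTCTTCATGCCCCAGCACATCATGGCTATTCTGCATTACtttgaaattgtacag

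The 3 *Ormdl* paralogs are shown because fragments are told apart only where the sequences differ. Their CDS are 459 nt each, and CDS bases 46 to 135 are printed with capitals at the 37 of 90 positions where the 3 are not all the same. *Ormdl1* lies here on the plus strand at chr1:53299024-53299113, *Ormdl2* on the minus strand at chr10:128820300-128820389 and *Ormdl3* on the minus strand at chr11:98583981-98584070.
Ormdl1: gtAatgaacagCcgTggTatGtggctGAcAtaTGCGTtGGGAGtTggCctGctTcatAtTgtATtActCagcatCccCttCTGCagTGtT
Ormdl2: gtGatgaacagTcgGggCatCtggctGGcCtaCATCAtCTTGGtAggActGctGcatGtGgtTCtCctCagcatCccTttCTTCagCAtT
Ormdl3: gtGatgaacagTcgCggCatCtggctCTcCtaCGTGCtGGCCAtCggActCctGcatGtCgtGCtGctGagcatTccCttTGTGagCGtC

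Over the whole CDS the *Ormdl* sequences are 73% identical between *Ormdl1* and each of the others and 75.6% identical between *Ormdl2* and *Ormdl3*, and the longest stretch that any pair shares in place is 19 nt. No window of 28 nt, a common fragment length, of any of the 10 CDS occurs in the CDS of another transcript of the table. *Sptlc1* (ENSMUST00000021920) spans chr13:53332748-53377397 on the minus strand, with 15 exons and a CDS of 1419 nt, and *Sptlc2* (ENSMUST00000021424) spans chr12:87305058-87388355 on the minus strand, with 12 exons and a CDS of 1680 nt. *Sptssa*, *Ormdl1*, *Ormdl2* and *Ormdl3* are in the shortest of 4 equal groups of tested CDS (75 to 897 nt). *Sptlc1*, *Kdsr* (996 nt), *Cers2* (1140 nt), *Cers5* (1242 nt) and *Cers6* (1152 nt) are in the next group (900 to 1440 nt), and *Sptlc2* is in the third (1443 to 2310 nt).

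All 10 genes were translated in mESCs at levels within the range of ordinary transcripts. Levels between genes were compared as normalized CPM per kb of counted CDS, averaged over the 9 total RPF libraries (SD, n = 9). The catalytic subunit *Sptlc2* was highest at 88.2 ± 3.58, followed by *Ormdl2* at 85.6 ± 6.51, *Kdsr* at 77.6 ± 5.21 and *Sptlc1* at 72.4 ± 3.66. *Cers5* at 64.7 ± 5.31 and *Cers2* at 63.1 ± 5.67 came next, and then *Sptssa* at 57.9 ± 12.1, *Ormdl3* at 52.6 ± 10.4 and *Cers6* at 48.4 ± 6.01. *Ormdl1* was lowest at 19.4 ± 3.17. The ranges of neighbours in this order overlapped for every pair but *Cers6* (42.2 to 60.9) and *Ormdl1* (16.5 to 26.5). The median of all tested transcripts on the same scale was 25.6, and *Ormdl1* alone of the 10 lay below it, with 43.1% of tested transcripts under its level, against 78.5% for *Sptlc2*. The mRNA itself was not measured, so more mRNA and more ribosomes per mRNA cannot be told apart, nor can more cells and more RPFs per cell.

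**Figure D1:**
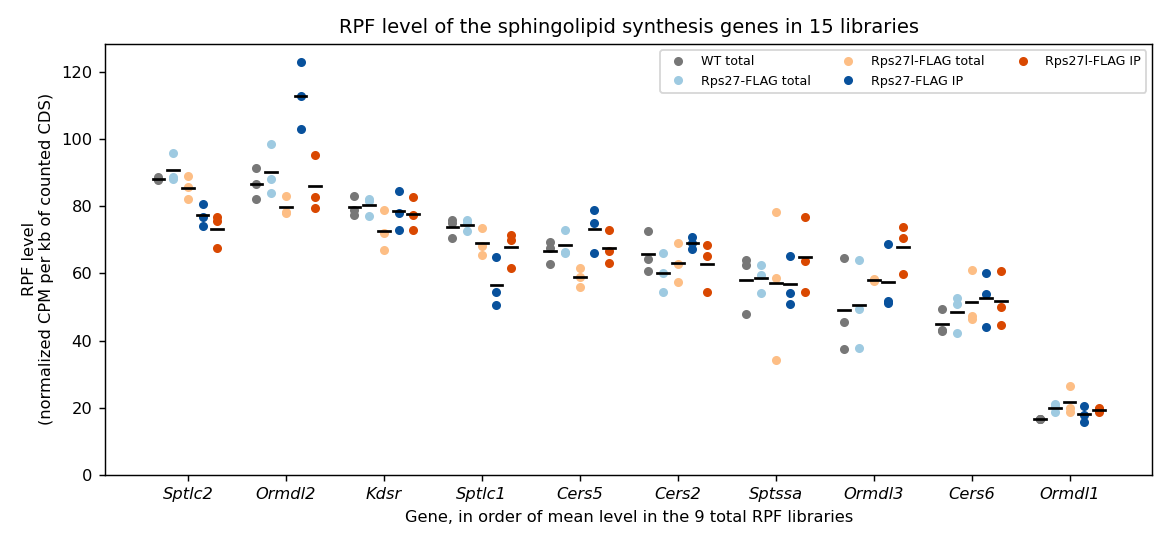
RPF level of each of the 10 genes in normalized CPM per kb of counted CDS (y axis) in the 15 libraries, in order of their mean in the 9 total RPF libraries. Points are libraries, coloured by group, and black bars are group means (n = 3). *Ormdl1* lies apart from the other 9, *Sptssa* and *Ormdl3* scatter most among total RPF libraries, and the *Rps27-FLAG* IP libraries of *Sptlc1* lie below its total RPF libraries.

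Ratios between the genes were described within the total RPFs, and other pairs of transcripts were not examined for comparison. *Sptlc1* stood at 0.821 ± 0.0294 (SD, n = 9) of the level of *Sptlc2* per kb, from 0.782 to 0.861. The ratio of *Kdsr*, the reductase of the next step, to *Sptlc1* was 1.07 ± 0.0312 (SD, n = 9). The summed level of the 3 *Ormdl* genes was 2.18 ± 0.187 (SD, n = 9) times that of *Sptlc1*, and the summed level of *Cers2*, *Cers5* and *Cers6* was 2.44 ± 0.135 (SD, n = 9) times. *Sptssa* over *Sptlc1* was less even, at 0.8 ± 0.166 (SD, n = 9), from counts between 33 and 97 per library.

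The RPFs of *Sptlc1* in the total fraction overlapped between the 3 lines, with the lowest mean in *Rps27l-FLAG*. In normalized CPM they stood at 95.9, 102 and 103 in WT, at 103, 102 and 98.5 in *Rps27-FLAG* and at 89, 99.9 and 92.6 in *Rps27l-FLAG* (replicates 1, 2 and 3). In the IP fraction they stood at 88.1, 74.1 and 68.8 in *Rps27-FLAG* and at 83.9, 95.1 and 97.1 in *Rps27l-FLAG*. All 3 *Rps27-FLAG* IP libraries lay below all 9 total RPF libraries, as did those of 11% of tested transcripts, whereas the *Rps27l-FLAG* IP libraries lay among the total RPF libraries of that line except for replicate 1. Between the lines the IP libraries overlapped, since replicate 1 of *Rps27-FLAG* was higher than replicate 1 of *Rps27l-FLAG*.

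The total RPFs of *Sptlc2*, its partner subunit, stood at 142, 144 and 143 normalized CPM in WT, at 143, 155 and 144 in *Rps27-FLAG* and at 133, 144 and 139 in *Rps27l-FLAG*. Its IP RPFs stood at 120, 125 and 131 in *Rps27-FLAG* and at 110, 124 and 122 in *Rps27l-FLAG*. All 6 IP libraries of *Sptlc2* lay below all 9 total RPF libraries, as did those of 6.02% of tested transcripts, and the IP libraries of the lines overlapped. The ratio of *Sptlc1* to *Sptlc2* per kb was 0.737 ± 0.125 (SD, n = 3) in the *Rps27-FLAG* IP and 0.923 ± 0.0197 (SD, n = 3) in the *Rps27l-FLAG* IP.

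**Figure D2:**
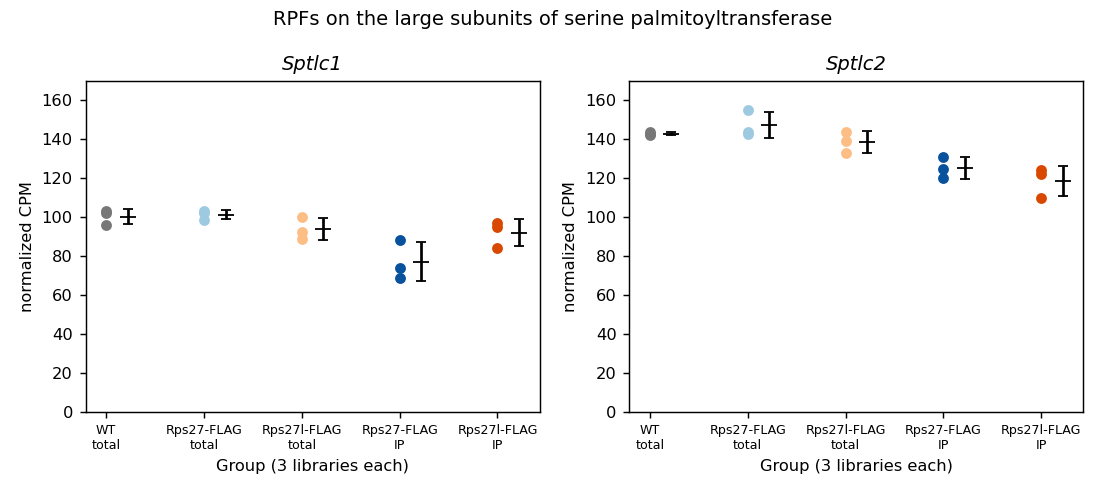
Normalized CPM (y axis) of *Sptlc1* and *Sptlc2* in the 5 groups of 3 libraries. Points are libraries, and the black marks beside them show the mean ± SD. *Sptlc1* averages 77 in the *Rps27-FLAG* IP and 92 in the *Rps27l-FLAG* IP, while *Sptlc2* averages 125 and 119.

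Comparing each IP library with the total RPFs of its own clone gave the difference for which *Sptlc1* was chosen. The log2 IP/total ratio of *Sptlc1* was -0.23, -0.46 and -0.52 in the *Rps27-FLAG* clones and -0.09, -0.07 and 0.07 in the *Rps27l-FLAG* clones. Every *Rps27-FLAG* clone lay below every *Rps27l-FLAG* clone, as did 9.08% of the 10085 tested transcripts. The means were -0.40 ± 0.15 and -0.03 ± 0.085 (SD, n = 3 clones each), 0.37 apart, and the difference from the fit of all transcripts was 0.34 (standard error 0.072). The replicate number also stands for the sequencing batch in the sample list of the study, and within batches 1, 2 and 3 the difference was 0.14, 0.39 and 0.59. For 33.2% of tested transcripts the difference had 1 sign in all 3 batches.

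For *Sptlc2* the clones of the lines overlapped. Its log2 IP/total ratio was -0.25, -0.32 and -0.14 in *Rps27-FLAG* and -0.28, -0.21 and -0.18 in *Rps27l-FLAG*, with every clone of both lines below 0, as were all 3 clones for 32.9% and 31.7% of tested transcripts, respectively. The means were -0.23 ± 0.091 and -0.22 ± 0.049 (SD, n = 3 each). The fitted difference was 0.01 (95% interval -0.10 to 0.13, edgeR adjusted p = 0.969), and within the 3 batches it was -0.03, 0.10 and -0.04.

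**Figure D3:**
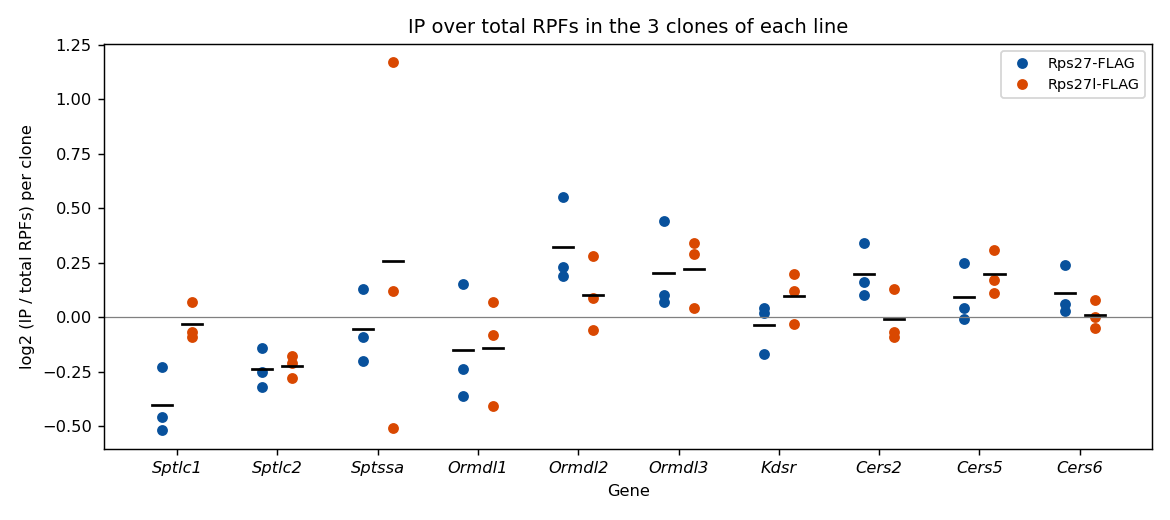
Log2 ratio of IP to total RPFs (y axis) for the 10 genes in the 3 *Rps27-FLAG* clones and the 3 *Rps27l-FLAG* clones. Points are clones and black bars are means. The lines are separate for *Sptlc1* and overlap for the other 9 genes, with the widest scatter for *Sptssa* in *Rps27l-FLAG*, from -0.51 to 1.17.

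None of the other 9 genes passed the test of the difference between lines, where 1.5% of tested transcripts did, and the clones of the lines overlapped for all 9, whereas they did not for 16.2% of tested transcripts in either direction. With voom and limma and with DESeq2 the count was also 0, and 1 of the 9 (*Cers2*) had an unadjusted edgeR p under 0.05, as did 12.1% of tested transcripts. Their fitted differences ran from -0.21 to 0.18, with a median of 0.01, beside a median of -0.003 and an SD of 0.18 over all tested transcripts. *Cers2*, the synthase of very-long-chain ceramides, had the lowest p of the 9. Its log2 IP/total ratio was 0.16, 0.10 and 0.34 in the *Rps27-FLAG* clones and -0.07, -0.09 and 0.13 in the *Rps27l-FLAG* clones, a difference of -0.21 (standard error 0.081, 95% interval -0.37 to -0.05, edgeR adjusted p = 0.229). This is opposite in sign to the difference of *Sptlc1*, and it was below 0 in all 3 batches (-0.24, -0.19 and -0.21), although replicate 2 of *Rps27-FLAG* lay under replicate 3 of *Rps27l-FLAG*.

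*Ormdl2*, an inhibitor of serine palmitoyltransferase, also had a negative difference. Its log2 IP/total ratio was 0.23, 0.19 and 0.55 in the *Rps27-FLAG* clones and 0.09, -0.06 and 0.28 in the *Rps27l-FLAG* clones, a difference of -0.21 (standard error 0.11, 95% interval -0.43 to 0.02, edgeR adjusted p = 0.477), and within batches it was -0.14, -0.25 and -0.26. The paralogs *Ormdl1* and *Ormdl3* had differences of -0.02 (95% interval -0.51 to 0.47, adjusted p = 0.988) and 0.06 (-0.22 to 0.34, adjusted p = 0.926). The intervals of the 3 *Ormdl* genes overlap. That of *Ormdl1*, with 27 to 67 counts per library, was the widest of the 9.

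*Kdsr* had a difference of 0.12 (95% interval -0.03 to 0.28, edgeR adjusted p = 0.59), and it was above 0 in all 3 batches, at 0.08, 0.14 and 0.19. *Cers5*, a synthase of ceramides with a shorter acyl chain, had one of 0.12 (-0.04 to 0.27, adjusted p = 0.595), and *Cers6*, of similar specificity, one of -0.11 (-0.29 to 0.06, adjusted p = 0.684, and -0.16, -0.09 and -0.06 within batches). *Sptssa* had the highest at 0.18 (-0.29 to 0.66, adjusted p = 0.843), and without replicate 3 of *Rps27l-FLAG*, whose total RPF library holds 33 counts of it, the value was -0.15. The upper bounds of the intervals ran from -0.05 for *Cers2* to 0.66 for *Sptssa*. The 0.34 of *Sptlc1* has a standard error of 0.072 and was chosen for its size, and no test set it against the value of another gene.

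**Figure D4:**
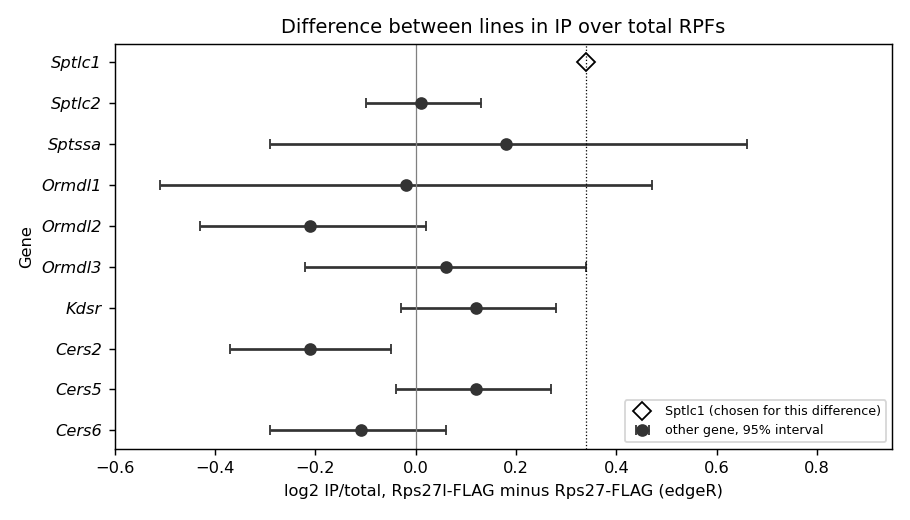
Difference between lines in log2 IP/total (x axis, *Rps27l-FLAG* minus *Rps27-FLAG*) for each gene. Filled points are edgeR estimates with 95% intervals, and the open diamond and dotted line mark *Sptlc1*, chosen for this difference and shown without an interval. The diamond stands at 0.34, and the intervals of *Sptssa* and *Ormdl1* are the widest.

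The IP and total RPFs were then compared within each line. Without the clone in the fit, 0 of the 9 genes other than *Sptlc1* passed the threshold in *Rps27-FLAG*, where 5.67% of tested transcripts did, and 0 in *Rps27l-FLAG*, where 3.1% did (2 of the 9 in each line had an unadjusted p under 0.05, beside 22.1% and 17.4% of tested transcripts). The voom and limma fit, DESeq2 and DESeq2's size factors in edgeR also called 0 of the 9 in both lines. With the clone as a block, which takes up what the paired IP and total library share, 3 of the 9 passed in *Rps27-FLAG*, where 41.2% of tested transcripts did. In *Rps27l-FLAG* the block gave 2 of the 9, beside 31%. The shares of the 9 were not tested against those of all transcripts.

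*Sptlc2* was the only one of the 9 to pass in both lines with the clone as a block. Its RPFs fell in the IP by 0.24 on the log2 scale in *Rps27-FLAG* (standard error 0.041, edgeR adjusted p = 2.59e-08) and fell by 0.23 in the IP of *Rps27l-FLAG* (adjusted p = 1.88e-05, standard error 0.043). Without the block the values were -0.24 (adjusted p = 0.0796) and -0.22 (adjusted p = 0.178). In *Rps27-FLAG* the unblocked fit without replicate 1 also called 2 of the 9, *Sptlc2* at -0.23 and *Ormdl2* at 0.36, where 18% of tested transcripts passed.

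*Ormdl2* and *Cers2* rose in the *Rps27-FLAG* IP with the clone as a block. The total RPFs of *Ormdl2* stood at 35.1, 39.4 and 33.6 normalized CPM and its IP RPFs at 41.1, 45 and 49 in that line, a log2 fold change of 0.30 with the block (standard error 0.074, edgeR adjusted p = 0.000228). All 3 IP libraries of *Ormdl2* lay above all 3 total libraries, and IP and total libraries of this line did not overlap for 28.3% of tested transcripts. The total RPFs of *Cers2* stood at 64.9, 71.3 and 58.9 and its IP RPFs at 72.6, 76.7 and 74.6, a log2 fold change of 0.19 with the block (standard error 0.055, adjusted p = 0.00323), again without overlap. Without the block the adjusted p was 0.128 for *Ormdl2* and 0.228 for *Cers2*.

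*Cers5* rose in the *Rps27l-FLAG* IP with the clone as a block. Its total RPFs stood at 66.3, 69.6 and 72.9 normalized CPM and its IP RPFs at 74.5, 86.1 and 78.7 in that line, so that the fractions did not overlap, as for 23.3% of tested transcripts. The log2 fold change was 0.20 with the block (standard error 0.056, edgeR adjusted p = 0.00355) and 0.20 without it (adjusted p = 0.264). The other genes of the 9 had log2 fold changes with the block from -0.12 to 0.16 in *Rps27-FLAG* and from -0.14 to 0.22 in *Rps27l-FLAG* and passed in neither line.

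The length of the CDS moved with the IP/total ratio over all transcripts. In *Rps27-FLAG* the median log2 fold change of IP over total RPFs was 0.16 in the shortest CDS group, where the *Ormdl* genes and *Sptssa* lie, 0.02 in the next, -0.05 in the third and -0.22 in the longest. In *Rps27l-FLAG* the medians were 0.11, -0.01, -0.06 and -0.19. With this trend removed from each library and the clone as a block, 30.5% of tested transcripts passed in *Rps27-FLAG* and 22.4% in *Rps27l-FLAG*. *Sptlc2* kept its call in both lines (-0.22, adjusted p = 4.3e-07, and -0.21, adjusted p = 0.000123). *Cers2* in *Rps27-FLAG* (0.14, adjusted p = 0.0496) and *Cers5* in *Rps27l-FLAG* (0.18, adjusted p = 0.0128) also kept theirs, and *Ormdl2* lost its own (0.10, adjusted p = 0.341). *Sptlc1* stood at -0.39 and -0.04 with the trend removed, and its difference between lines at 0.35.

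**Figure D5:**
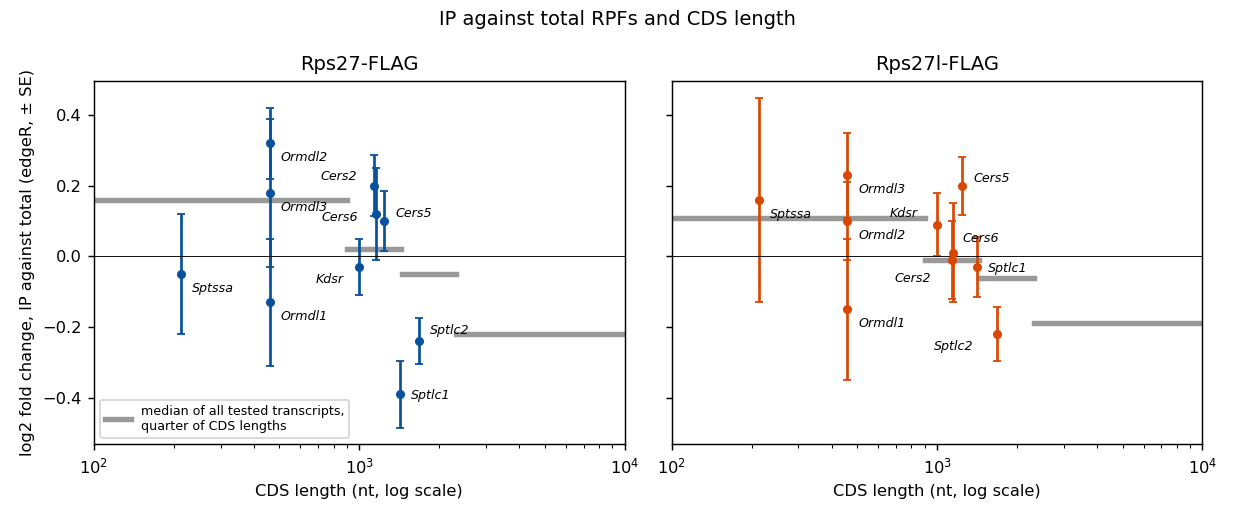
Log2 fold change of IP against total RPFs (y axis, edgeR without the clone as a block, ± standard error) of the 10 genes against CDS length on a log axis (x axis), for each tagged line. Grey bars are medians of all tested transcripts in 4 equal groups of CDS length, clipped at the ends of the axis. *Sptlc1* in *Rps27-FLAG*, at -0.39, lies below the 0.02 of its length group, and *Ormdl2* in that line, at 0.32, lies above the 0.16 of its own.

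The total RPFs were compared between the lines in 3 tests that share libraries. None of the 9 genes passed in any of them, and 0 of the 10085 tested transcripts did, or 0%. Before adjustment, 0, 1 and 1 of the 9 had a p under 0.05, where 2.92%, 5.69% and 5.75% of tested transcripts passed for *Rps27-FLAG* against WT, *Rps27l-FLAG* against WT and *Rps27l-FLAG* against *Rps27-FLAG*. DESeq2 and the voom and limma fit also called 0 transcripts in each. Among the regulators, *Ormdl1* had the largest log2 fold changes, 0.27 for *Rps27-FLAG* against WT and 0.38 for *Rps27l-FLAG* against WT (standard error 0.18 for both, edgeR adjusted p = 0.999 and 0.821). Its WT libraries, with 47, 50 and 44 counts, stood at 6.58, 6.64 and 6.57 normalized CPM. They lay below all 6 tagged libraries, which ran from 7.41 to 10.6 and held 49 to 67 counts. The WT libraries lay apart from the tagged ones in this way, above or below, for 2% of tested transcripts.

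Among the enzymes, *Cers5* had a log2 fold change of -0.22 for *Rps27l-FLAG* against *Rps27-FLAG* (standard error 0.075, edgeR adjusted p = 0.803). All 3 *Rps27l-FLAG* libraries, from 66.3 to 72.9 normalized CPM, lay below the 3 of *Rps27-FLAG*, from 78.1 to 86.2, and 11.5% of tested transcripts were likewise without overlap. *Sptlc1*, whose total RPFs are the denominators of the ratios that chose it, had a log2 fold change of 0.01 for *Rps27-FLAG* against WT, of -0.10 for *Rps27l-FLAG* against WT and of -0.11 for *Rps27l-FLAG* against *Rps27-FLAG* (standard error 0.066 for all 3). Those of *Sptlc2* were 0.04, -0.04 and -0.09 (standard error 0.06, adjusted p = 0.999, 0.901 and 0.808). With the replicate number as a block 0 of the 9 passed in any of the 3 comparisons, where 0.00992%, 1.43% and 1.36% of tested transcripts did.

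The rest of the pathway was described from 4 lists of genes. For other genes listed with serine palmitoyltransferase, levels are in normalized CPM per kb in the total RPFs (SD, n = 9). *Rtn4*, which encodes the Nogo proteins of the endoplasmic reticulum, stood at 517 ± 61.3. *Zdhhc9*, a palmitoyltransferase of proteins whose link to this enzyme was not examined, stood at 12.2 ± 2.08. The alternative large subunit *Sptlc3* had at most 1 count in any library. Of 17 genes of ceramide synthesis and fatty acid elongation 11 were tested, led by *Tecr* (319 ± 20), *Elovl6* (264 ± 28) and *Elovl5* (258 ± 23.2), which act in the elongation of fatty acids. The synthases *Cers1* and *Cers3* had at most 3 counts in a library (*Cers1* had 0 in all 15), and *Cers4* stood at 25.7 ± 3.05, below *Cers2*, *Cers5* and *Cers6*.

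Of 16 genes for the transport of ceramide and its conversion to complex sphingolipids 13 were tested, led by *Vapa* (444 ± 12.9) and *Vapb* (72.1 ± 4.22), anchors of the ceramide transfer protein, and *Ugcg* (47.4 ± 3.81), which makes glucosylceramide. Of 29 genes of sphingolipid breakdown and sphingosine 1-phosphate 18 were tested, among them *Psap* (327 ± 26.1), the precursor of the saposins, and *Asah1* (165 ± 10.9), the acid ceramidase. The 44 tested genes of the 4 lists gave 0 calls between total RPFs of the lines, where 0% of tested transcripts passed. They also gave 0 calls in the difference of IP/total between lines, where 1.5% of tested transcripts passed. The list medians of that difference were -0.02, 0.03, -0.09 and 0.03 in the order above. With the replicate number as a block 1 gene passed in the total RPFs, the lysosomal galactosidase *Glb1*, named after its value was seen, at -0.30 for *Rps27l-FLAG* against *Rps27-FLAG* (edgeR adjusted p = 0.0472, and 0.803 without the block). In that comparison 1.36% of tested transcripts passed with the block.

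Between IP and total RPFs without the block, 1 of these 44 genes passed in *Rps27-FLAG* and 0 in *Rps27l-FLAG*, where 5.67% and 3.1% of tested transcripts did. *Smpd4*, a neutral sphingomyelinase, stood at 165, 157 and 163 normalized CPM in the total RPFs and at 118, 129 and 128 in the IP RPFs of *Rps27-FLAG* and fell by 0.37 on the log2 scale (edgeR adjusted p = 0.0141). The call was lost without replicate 2 (-0.41, adjusted p = 0.241), without replicate 3 (-0.38, adjusted p = 0.249) and with the trend with CDS length removed (-0.27, adjusted p = 0.09), and it was kept without replicate 1 (-0.31, adjusted p = 0.00385) and with the length trend removed and the clone as a block (-0.28, adjusted p = 4.9e-11). In *Rps27l-FLAG* its log2 fold change was -0.35 (adjusted p = 0.052 without the block, 2.45e-10 with it and 6.97e-07 with the block and the length trend removed), and the difference between lines was 0.03 (adjusted p = 0.909). Of the 18 tested breakdown genes, 15 had a log2 fold change below 0 in *Rps27-FLAG* (median -0.17) and 14 in *Rps27l-FLAG* (median -0.12), where 51.7% and 56.3% of all tested transcripts did, with medians of -0.01 and -0.03. The medians of the ceramide synthesis genes were 0.08 and 0.08, and those of the transport and conversion genes were -0.04 and -0.05. The CDS of the breakdown genes had a median of 1596 nt and those of the ceramide synthesis genes one of 924 nt. With the trend with CDS length removed the medians were -0.16 and -0.14 for breakdown, with 15 and 14 of 18 below 0, and -0.03 and 0.02 for ceramide synthesis. For the transport and conversion genes they were -0.01 and -0.14, with 7 and 9 of 13 below 0. Over all transcripts in that setting the medians were -0.03 and -0.04, with 5649 and 6001 of 10082 below 0. These counts and medians were not tested. With the clone as a block, 4 and 5 of the 11 ceramide synthesis genes were higher in the IP and 0 lower in *Rps27-FLAG* and *Rps27l-FLAG*, and 1 of the 18 breakdown genes was higher and 6 lower in each line. The block gave 18.3% of tested transcripts higher in the IP of *Rps27-FLAG* and 22.9% lower, against 12% and 19% for *Rps27l-FLAG*.

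Among the transcripts whose log2 normalized CPM followed *Sptlc1* most closely over the 15 libraries were *Pigx* (Pearson's r = 0.879), *Sik3* (0.878), *Sucla2* (0.855) and *Esyt2* (0.853). These values describe libraries that share clones, batches and fraction, and the IP libraries that chose *Sptlc1* are among them. Of the 9 other genes of the pathway, *Sptlc2* came nearest, with r = 0.563 and rank 1109 of the tested transcripts, followed by *Kdsr* with r = 0.394, and *Ormdl2* was farthest at -0.629.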

How the data were processed

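The authors trimmed reads with cutadapt 2.4, handled molecular identifiers with UMI-tools 1.0.1, aligned reads with Bowtie2 2.3.4.3 to canonical transcripts of GRCm38 (mm10) from another GENCODE release than the M21 used here for symbols, positions and CDS, and deposited unnormalized counts of unique alignments per CDS. Of 21727 transcripts 21713 had an M21 entry, and 0 per-sample columns were left out. Groups came from the labels.

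Normalized CPM are counts over library sizes scaled by the trimmed mean of M-values (TMM), with IP and total RPF libraries scaled separately. Here 13 mitochondrially encoded transcripts were left out and CPM over 2 was required in at least 14 of 15 libraries. Counts were tested with the quasi-likelihood test of edgeR 4.0.16 (R 4.3.3) with Benjamini-Hochberg adjustment over 10085 transcripts and a threshold of 0.05. The designs were cell line for total RPFs, fraction within a line for IP against total, and cell line, clone within line and fraction within line for the difference between lines. A count of 0.5 was added before clone ratios. Alternatives were limma 3.58.1 with voom, DESeq2 1.42.0, other scalings and filters, removal of the trend with CDS length (loess, span 0.5), the clone or batch as a block or none, a limit of 0.25 on the log2 fold change, and each clone left out. The scripts were tested on simulated counts.

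IP and total libraries with the same number come from the same clone according to the sample names. Their deviations from group means correlated with r from 0.468 to 0.79 in the 6 clones.

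All 10 genes were named, as were pathway genes called without a block or among the 3 highest of their list, and the 5 transcripts most correlated with *Sptlc1*, except for 2 transcripts that are not reported here. The ceramide synthases *Cers1*, *Cers3* and *Cers4* were named after their values were seen. The genes, lists and tests were chosen with earlier results of these data known. Standard errors were computed as the absolute log2 fold change over the square root of the edgeR F statistic. Intervals use these errors and the t distribution, and the edgeR fit draws the spread of each transcript towards that of all tested transcripts. They can therefore be narrower or wider than the spread of a gene's own clones. For *Sptssa* the standard error of the difference between lines was 0.24, beside clone SDs of 0.17 and 0.85. *Sptssb* was not analysed here.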

Additional observations from a re-analysis of the deposited data

How the results depend on the processing

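In the fits of IP against total RPFs the clone as a block moved the count of the 9 genes other than *Sptlc1* that passed from 0 to 3 in *Rps27-FLAG* and from 0 to 2 in *Rps27l-FLAG*, and the block with the CDS length trend removed gave 2 and 2. Leaving out each *Rps27-FLAG* clone gave 0 to 2. In the difference between lines 0 of the 9 passed with the block or without it, and the block changed no other call of the 9. Without the block 0 of the 10085 transcripts passed there in edgeR, with 142 at an unadjusted p under 0.05. Counts over all transcripts also moved: the difference between lines gave 151 calls as reported, 23 with DESeq2, 86 to 149 without single clones and 58 with the limit of 0.25. IP against total gave 572 calls in *Rps27-FLAG* (148 with the CDS length trend removed, 4154 with the block, 0 without replicate 2 or 3 and 1817 without replicate 1) and 313 in *Rps27l-FLAG* (6, 3128, 0 without replicate 1 or 2 and 319 without replicate 3). The difference of *Sptlc1* was 0.36 without the block, 0.31 with library totals in place of TMM, and 0.29 to 0.45 without single clones.

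Values close to 0 changed sign under some settings, as did some farther from it, such as *Ormdl3* at 0.18 in the *Rps27-FLAG* IP, all without a call. With the CDS length trend removed these were, between IP and total RPFs, *Ormdl3* in *Rps27-FLAG* (-0.02) and *Ormdl2* (-0.07), *Cers6* (-0.03) and *Sptssa* (-0.1) in *Rps27l-FLAG*, in the difference between lines *Ormdl1* (0.01), and in the total RPFs *Kdsr* (-0.0016) and *Sptssa* (-0.02) in *Rps27-FLAG* against WT and *Sptssa* (0.01) between the tagged lines. With the clone as a block as well, they were *Ormdl3* (-0.04) in *Rps27-FLAG* and *Ormdl2* (-0.08), *Cers6* (-0.02) and *Sptssa* (-0.12) in *Rps27l-FLAG*. With TMM over all 15 libraries *Cers2* stood at 0.01 in *Rps27l-FLAG*.

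Leaving out single clones changed the sign in these ranges. Between IP and total RPFs they were *Kdsr* -0.08 to 0.03 and *Sptssa* -0.15 to 0.02 in *Rps27-FLAG*, and *Cers2* -0.09 to 0.03, *Cers6* -0.02 to 0.03 and *Sptssa* -0.21 to 0.57 in *Rps27l-FLAG*. In the difference between lines they were *Sptlc2* -0.02 to 0.06, *Ormdl1* -0.14 to 0.16 and *Sptssa* -0.15 to 0.57. In total RPFs of *Rps27-FLAG* against WT they were *Cers5* -0.01 to 0.07, *Kdsr* -0.01 to 0.04, *Ormdl2* -0.01 to 0.11, *Ormdl3* -0.17 to 0.29 and *Sptssa* -0.11 to 0.08. For *Rps27l-FLAG* against WT they were *Cers2* -0.13 to 0.02 and *Sptssa* -0.31 to 0.23, and between the tagged lines *Cers2* -0.0039 to 0.14, *Cers6* -0.05 to 0.15, *Ormdl1* -0.05 to 0.21 and *Sptssa* -0.32 to 0.23. The cause was not tested. Counts were lowest for *Sptssa* and *Ormdl1*, with 27 to 97 per library.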

Other observations

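*Sgpl1*, which encodes sphingosine 1-phosphate lyase, the enzyme that ends sphingolipid breakdown, differed between clones more than between lines or fractions. This gene was picked out after its values were seen. Its total RPFs stood at 277, 148 and 136 normalized CPM in WT replicates 1, 2 and 3, at 318, 157 and 146 in *Rps27-FLAG* and at 266, 269 and 153 in *Rps27l-FLAG*. Its IP RPFs stood at 300, 149 and 149 in *Rps27-FLAG* and at 273, 286 and 154 in *Rps27l-FLAG*, so each IP library lay near the total RPFs of its own clone. All 3 libraries of replicate 1 and replicate 2 of *Rps27l-FLAG* were high in the total RPFs, and the others were low, with no value between 157 and 266. Batches are those of the study's sample list, and only batch 2 held both high and low clones.

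The highest of the 9 total RPF libraries was 2.34 times the lowest for *Sgpl1*. Of the 2347 tested transcripts with a mean over 100 normalized CPM in the total RPFs, 17 (0.724%) had a ratio at least as large. Among the 10 sphingolipid synthesis genes the ratio was lowest for *Sptlc1* and *Sptlc2*, at 1.16 and 1.17. It reached 1.72 for *Ormdl3* and 2.29 for *Sptssa*, which had 33 to 97 counts per library. None of the 6 comparisons called *Sgpl1* (edgeR adjusted p from 0.329 to 0.999), with a standard error of 0.35 in each comparison of total RPFs.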
